A study of Mus musculus with 12 samples.

Results

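Ribosome biogenesis factors are the proteins that transcribe, modify and cut ribosomal RNA (rRNA) and assemble it with ribosomal proteins. The set described here holds 52 mouse genes, taken by symbol from a list of nucleolar proteins (5 genes), RNA polymerase I and its factors (7), small subunit assembly factors (22) and large subunit assembly factors (18). All 52 were found among the 54537 genes of the deposited table. The choice went by names, but it was made with earlier results of these data known. Poly(A) RNA was sequenced from mouse embryonic stem (ES) cells and from embryoid bodies, the floating aggregates in which ES cells differentiate. The genotypes were wild type (WT) and WT+1343KO-a14, shortened to 1343KO below. The labels do not say what 1343 or the prefix WT+ stands for, and the line is 1 clone, a14. Day 0 cells were grown on gelatin, in medium with serum and leukaemia inhibitory factor (which keeps ES cells undifferentiated), and day 8 and day 16 embryoid bodies were grown in suspension in serum without it. Each line had 2 libraries at each day, 12 in all. The series title ties the small nucleolar RNA SNORA73 to the exit from pluripotency, so the comparisons ask how the biogenesis genes behaved as each line left, or did not leave, the ES cell state.

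The nucleolus forms around the repeated rRNA genes, where RNA polymerase I, with the factors Rrn3 and Ubtf, makes a long rRNA precursor. The small subunit processome, which holds the U3 small nucleolar RNA, then cuts and folds the part of it that goes into the small subunit, while a separate set of factors, GTPases and helicases builds the large subunit. The pathway is known for its cost in growing cells, for the control of many of its genes by Myc, and for the prominent nucleoli of pluripotent cells.

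Since the members moved together, their promoters are shown first. Promoters were taken from RefSeq (build GRCm38.p6), from 250 bases before to 50 bases after each annotated start, and 45 of the 52 members matched, with 55 promoters. The members with no entry were Npm1, Rrp12, Bop1, Gnl3l, Rpf1, Gnl2 and Tcof1. Each promoter was searched on both strands for CACGTG (the E-box bound by Myc and Max, which reads the same on both strands), CCGGAAG (an Ets family core), AAGATGG (a YY1 core) and GCGCATG (an NRF1 repeat), and none of these contains another. The E-box stood in the promoters of 11 of the 45 members (24.4%), against 11.65% of the 11087 tested genes with a promoter and 8.09% of all 27025 genes with a promoter. The Ets core stood in 17 (37.8%), against 19.0% of tested genes and 9.93% of all genes with a promoter. The YY1 core and the NRF1 repeat stood in 3 members each (6.67%), against 8.07% and 7.57% of tested genes. Median G and C content was 59.3% for the members' promoters and 60.3% for those of tested genes. These are matches of letters and not measured binding. The 11 members with an E-box are shown with 12 bases on either side, or fewer at the edge of the window, written 5′ to 3′ on the gene's own strand with the E-box in capitals.
Rrn3 (chr16:13780472-13780501, plus strand): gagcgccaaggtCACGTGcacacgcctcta
Nop2 (chr6:125131811-125131840, plus strand): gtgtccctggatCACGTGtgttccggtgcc
Imp4 (chr1:34439696-34439725, plus strand): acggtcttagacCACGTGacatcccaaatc
Pes1 (chr11:3963965-3963994, plus strand): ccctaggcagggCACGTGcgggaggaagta
Rpf2 (chr10:40246988-40247017, minus strand): aagtaatcggtaCACGTGcattcgctaagg
Utp18 (chr11:93885769-93885798, minus strand): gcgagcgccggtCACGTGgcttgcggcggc
Utp20 (chr10:88826765-88826789, minus strand): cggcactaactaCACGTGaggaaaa
Wdr43 (chr17:71616220-71616249, plus strand): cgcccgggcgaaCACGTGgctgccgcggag
Ltv1 (chr10:13193092-13193121, minus strand): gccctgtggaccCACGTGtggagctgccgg
Nle1 (chr11:82908355-82908384, minus strand): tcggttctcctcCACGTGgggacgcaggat
Tsr1 (chr11:74898092-74898121, plus strand): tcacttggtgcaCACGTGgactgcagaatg

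The 250 bases before the RefSeq start are printed for 4 members that are followed in detail below, to show how the sites lie. RefSeq starts can differ from the starts of the gene positions given below, which come from the deposited table. The stretch printed for Heatr1 lies inside its gene by those positions. So do the E-boxes shown for Wdr43, Pes1, Rpf2, Utp20, Ltv1, Nle1 and Tsr1. Capitals mark a complete E-box or Ets core on either strand. Rrn3 had 2 E-boxes, 215 and 48 bases before its start, and 2 Ets cores that are not in the printed stretch, 1 that begins 5 bases before the start and runs past it and 1 that begins 18 bases after it. Nop2 had an E-box and an Ets core 60 and 38 bases before its start. Nolc1 and Heatr1, which were among the 5 members with the largest WT falls to day 16, had no E-box and an Ets core 14 and 16 bases before their starts. The others of those 5, Ddx21, Rrp9 and Rrp1b, had neither motif, as had 23 of the 45 members with a promoter.
Rrn3 (chr16:13780449-13780698, plus strand): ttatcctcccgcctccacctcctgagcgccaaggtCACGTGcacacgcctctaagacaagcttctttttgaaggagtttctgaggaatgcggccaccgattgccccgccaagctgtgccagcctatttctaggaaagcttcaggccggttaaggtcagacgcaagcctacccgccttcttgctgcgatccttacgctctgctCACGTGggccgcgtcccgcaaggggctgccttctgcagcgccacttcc
Nop2 (chr6:125131633-125131882, plus strand): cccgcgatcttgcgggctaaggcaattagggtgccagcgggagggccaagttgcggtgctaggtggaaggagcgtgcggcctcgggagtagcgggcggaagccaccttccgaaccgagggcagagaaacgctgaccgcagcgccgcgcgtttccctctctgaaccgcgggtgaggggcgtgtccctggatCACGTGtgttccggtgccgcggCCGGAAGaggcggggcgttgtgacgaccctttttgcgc
Nolc1 (chr19:46075597-46075846, plus strand): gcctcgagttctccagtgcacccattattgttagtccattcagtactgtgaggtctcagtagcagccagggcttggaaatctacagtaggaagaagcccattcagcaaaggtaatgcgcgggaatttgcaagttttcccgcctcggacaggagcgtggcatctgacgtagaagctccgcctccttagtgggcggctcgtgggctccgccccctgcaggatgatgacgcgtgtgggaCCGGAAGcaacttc
Heatr1 (chr13:12395125-12395374, plus strand): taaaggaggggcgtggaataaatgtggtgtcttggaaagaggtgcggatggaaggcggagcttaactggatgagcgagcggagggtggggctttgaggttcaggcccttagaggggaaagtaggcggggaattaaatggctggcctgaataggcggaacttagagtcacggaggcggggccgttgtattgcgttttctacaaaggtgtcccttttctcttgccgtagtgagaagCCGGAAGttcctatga

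Levels are in FPKM, fragment counts scaled to transcript length and library depth, and can be compared between genes. Changes are on the log2(FPKM + 1) scale with the standard error (SE) of the fit, and a gene passed where its adjusted p from limma, over all 16289 genes tested, was under 0.05. Estimated depth was 4900000 to 8000000 fragments per library, and replicate libraries correlated at 0.970 or more across genes. Snhg3, the noncoding host gene of Snora73, differed between the lines: it was at 61.1 and 47.0 FPKM in WT at day 0 and at 1.57 and 0 in the 1343KO line. No label names Snhg3 as the gene changed, so these values do not check the labels. The markers of the labelled ES cells were present at day 0, where 8 pluripotency genes summed to 1965 to 1971 FPKM in WT and 2096 to 2178 in the 1343KO line. All 52 members were at 1 FPKM or more in every library, from 1.29 (Rrp12) to 1996 (Npm1), so no member was lost to the filter on low values. In the annotation 14 members overlap another coding gene: Polr1e, Heatr1, Rrp9, Bysl, Tsr1, Dimt1, Emg1, Noc2l, Bop1, Pes1, Wdr12, Gnl2, Gnl3 and Nle1. Since no source says that strand was used in counting, reads of such a pair cannot be told apart. Nothing says that the 2 libraries of a group came from separate cultures, so the p-values speak of variation among the libraries at hand, part or all of which may be technical. The smallest p of an exact permutation test of 2 libraries against 2 is 0.333.

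In WT the members fell as a group when ES cells became embryoid bodies, and in the 1343KO line they stayed much closer to their ES cell level. The 52 members summed to 5174.1 and 5231 FPKM in WT at day 0, 2149.6 and 2226 at day 8, and 1569 and 1561 at day 16. Their sums in 1343KO libraries were 5224 and 5121 FPKM at day 0, 4050.5 and 4007 at day 8, and 3965 and 3904 at day 16. As a share of all FPKM, the members took 1.08% and 1.09% in WT at day 0 and 0.341% and 0.348% at day 16, against 1.07% and 1.07% and then 0.792% and 0.784% in the 1343KO line. The sums of the lines lay close together at day 0 and far apart at days 8 and 16, and no day 8 or day 16 library of one line overlapped those of the other.

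**Figure D1:**
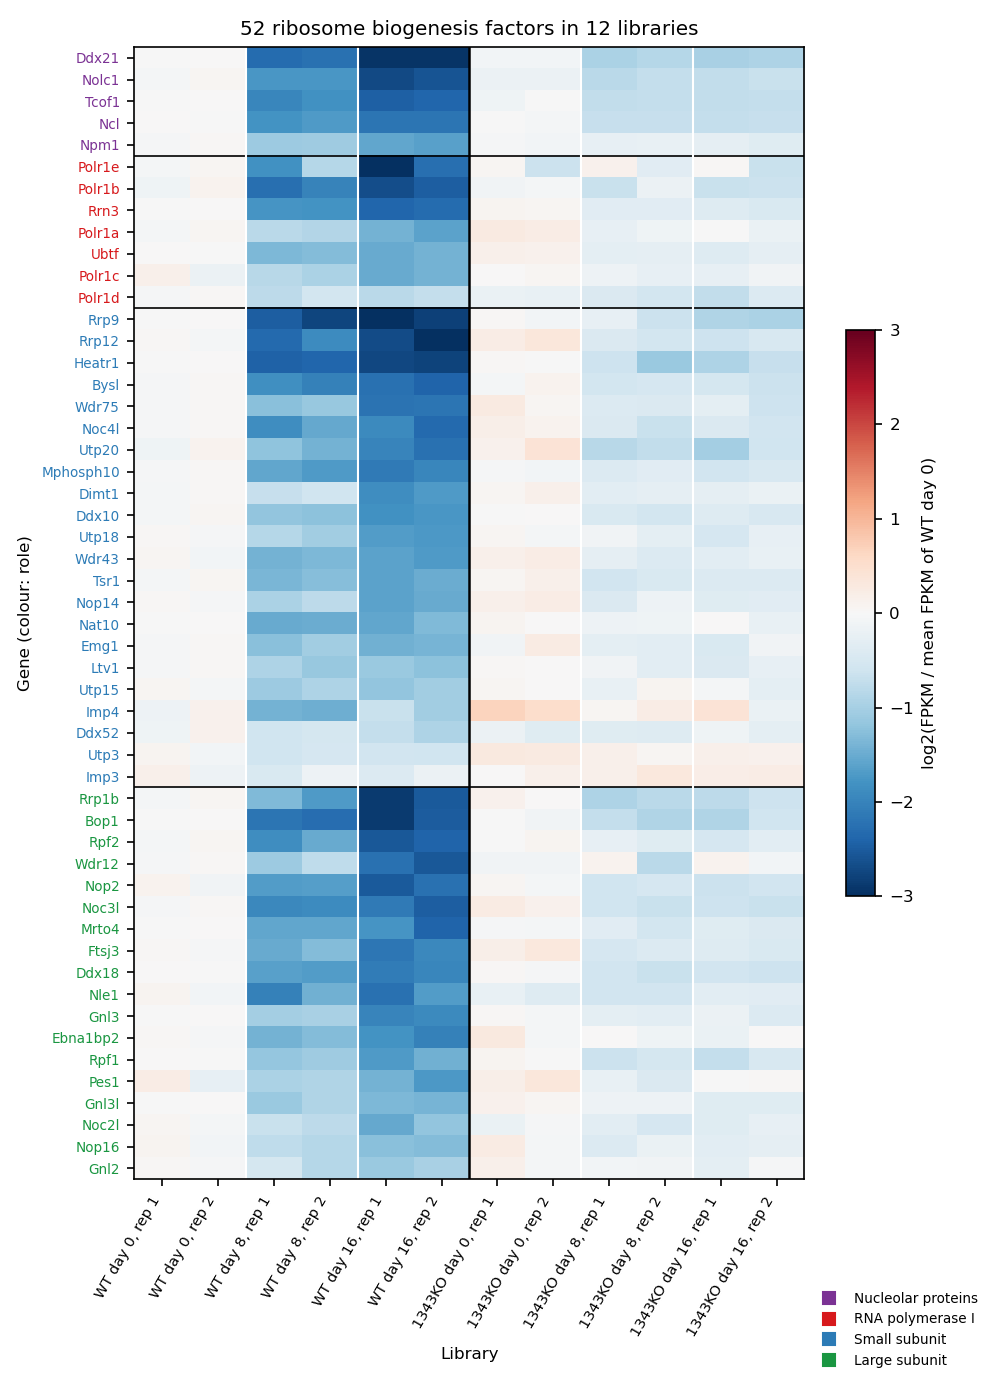
Level of each of the 52 members (rows, coloured by role) in each of the 12 libraries (columns), as log2 of its FPKM over its mean FPKM in WT at day 0 (blue lower, red higher). The WT libraries of days 8 and 16 are blue in nearly every row, while the 1343KO libraries of the same days stay near white.

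In WT, 51 of 52 members fell from day 0 to day 8 (median -1.29), against 24.5% of all tested genes that fell, and none rose. From day 0 to day 16, 51 of 52 fell (median -1.80), against 28.5% of all tested genes. Between days 8 and 16, 32 of 52 fell further (median -0.43), against 13.5% of all tested genes (27.6% passed in either direction), and this count was 16 when only the 4 libraries compared entered the fit. The median member kept 39.9% of its day 0 FPKM at day 8 and 26.5% at day 16. Imp3 was the member that did not pass in either fall from day 0. The median change of all tested genes was 0.00 from day 0 to day 8 and 0.02 from day 0 to day 16.

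In the 1343KO line, 30 of 52 members fell from day 0 to day 8 (median -0.40), against 8.51% of all tested genes, and the count was 17 with only the 4 libraries compared. From day 0 to day 16, 36 of 52 fell (median -0.44), against 8.6% of all tested genes, and the count was 24 with only the 4 libraries compared. No member passed between days 8 and 16 by limma (median -0.01), where 0.804% of all tested genes passed in either direction and 2 members had an unadjusted p under 0.05. The median member kept 75.3% of its day 0 FPKM at day 8 and 73.2% at day 16. Side by side, the median member of the 1343KO line was near the same share at days 8 and 16, while that of WT was lower at day 16 than at day 8.

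Between the lines, no member passed at day 0 by limma, where 3.71% of all tested genes passed, 2.12% as lower, and 6 members had an unadjusted p under 0.05 (median difference 0.03). At day 8, 48 of 52 members were higher in the 1343KO line (median 0.89, or 1.85-fold), against 23.3% of all tested genes. At day 16, 51 of 52 were higher (median 1.41, or 2.65-fold), against 28.5% of all tested genes. None was lower at either day. Polr1d was the member that did not pass at day 16, and Polr1d, Ddx52, Noc2l and Wdr12 were those that did not pass at day 8. Both 1343KO libraries lay above both WT libraries for 51 members at day 8, against 38.3% of all tested genes, and for 51 at day 16, against 40.6%. Day 16 libraries of the 1343KO line were also above both WT day 8 libraries for 51 members, against 40.2% of all tested genes. The day 8 count was 41 with TPM scaling, under which the share of tested genes that were higher was 17.2% and the median of all tested genes moved from 0.06 to -0.08.

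**Figure D2:**
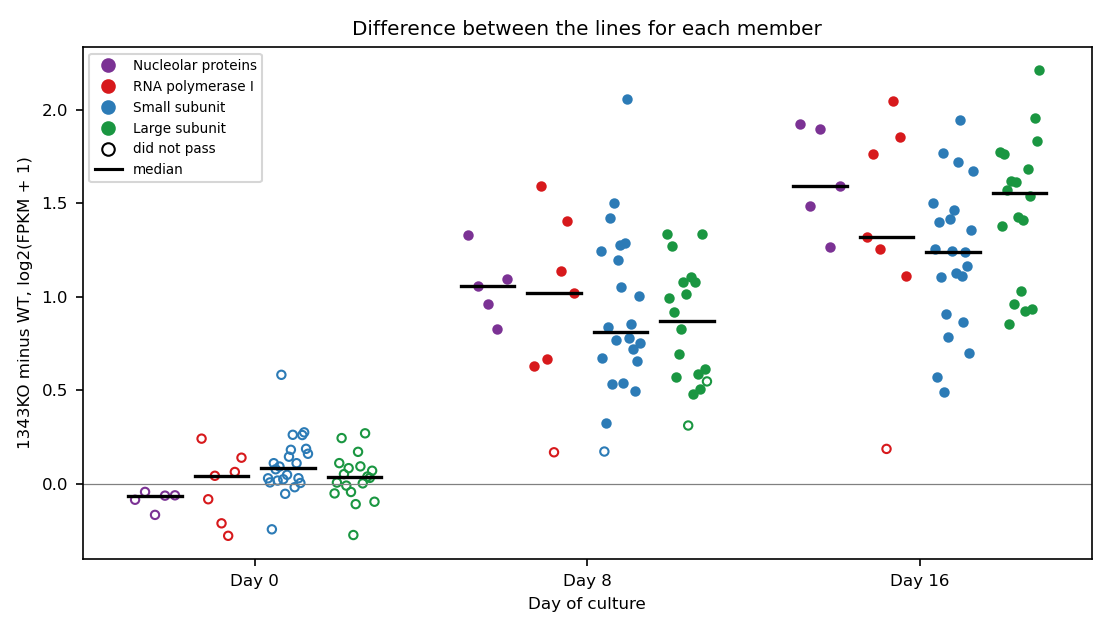
Difference between the lines, 1343KO minus WT on the log2(FPKM + 1) scale, for each member at each day, coloured by role; filled points passed, open points did not, and bars are the medians of each role. All points of day 0 are open, and those of days 8 and 16 lie above 0.

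The difference between the falls was tested as a line by time interaction in the same limma fit. By day 8, 37 of 52 members had fallen less, or not fallen, in the 1343KO line (median 0.82), against 15.6% of all tested genes. By day 16, 49 of 52 had (median 1.31), against 21.7%. None had fallen more, and 40.0% of all tested genes passed in either direction to day 16. Across the 52 members, the size of the fall in WT and in the 1343KO line went together at day 8 (r = 0.56, rho = 0.59) and at day 16 (r = 0.60, rho = 0.62). This is a description over genes of the same libraries, which are not independent. The 1343KO change was the higher for 52 of 52 members at both days, with a median of 33.0% of the WT log2 change at day 8 and 26.0% at day 16. It was above 0 for 2 members at day 8 and 3 at day 16, and less negative than in WT for the others. Ddx21, Heatr1 and Rrp9 were among the 5 largest falls from day 0 to day 16 in both lines.

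**Figure D3:**
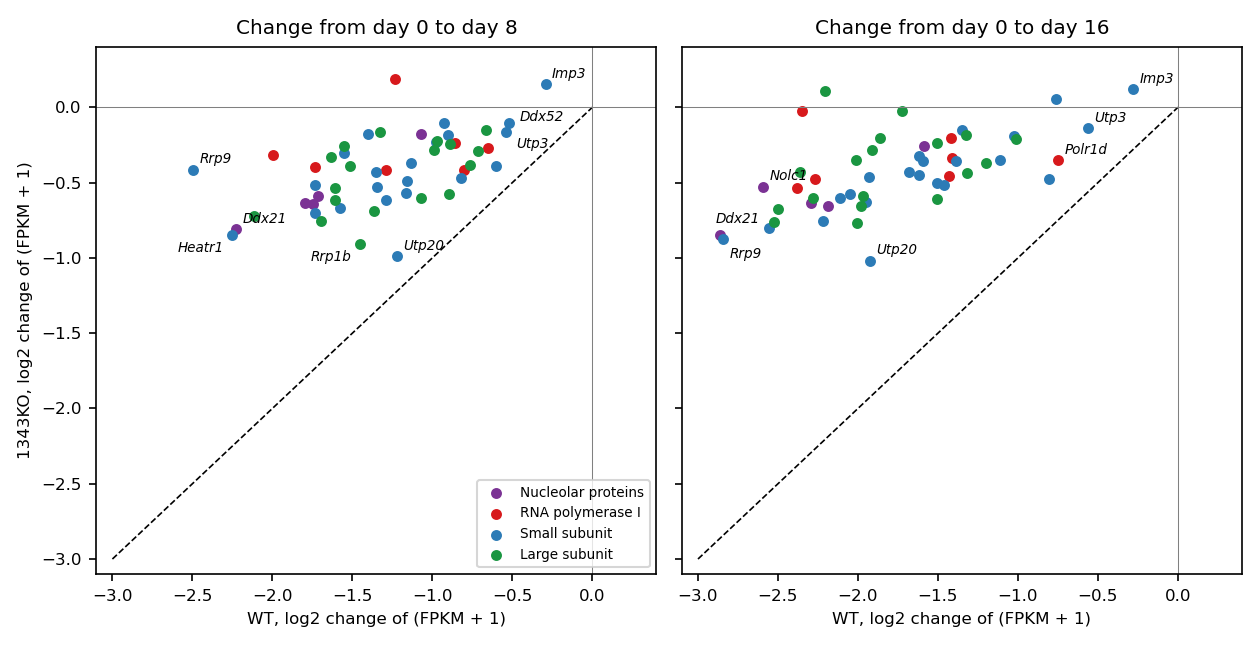
Change from day 0 in the 1343KO line (vertical axis) against the change in WT (horizontal axis), both on the log2(FPKM + 1) scale, for the 52 members at day 8 (left) and day 16 (right), coloured by role; the dashed line marks equal changes. All 52 points lie above the dashed line in both panels.

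The 5 nucleolar proteins held 2940 and 3027 of the members' summed FPKM in WT at day 0. All 5 fell from day 0 to day 8 in both lines, against 24.5% of all tested genes in WT and 8.51% in the 1343KO line. All 5 fell to day 16 too, against 28.5% and 8.6%. They were all higher in the 1343KO line at days 8 and 16, against 23.3% and 28.5% of all tested genes. Nucleolin (Ncl, chr1:86344719-86359400), an abundant protein of rRNA transcription and processing, was in WT at 745 and 731 FPKM at day 0, 212 and 226 at day 8, and 160.4 and 162 at day 16. Ncl levels in the 1343KO line were 727 and 704 FPKM at day 0, 459.8 and 455 at day 8, and 453 and 456 at day 16. The day 0 libraries of the lines were near each other, and at days 8 and 16 every 1343KO library was above every WT library. Ncl fell by 1.75 ± 0.05 in WT by day 8 (adjusted p = 1.14e-08) and by 0.64 ± 0.05 in the 1343KO line (adjusted p = 2.29e-05). It was higher in the 1343KO line by 1.06 ± 0.05 at day 8 and 1.49 ± 0.05 at day 16 (adjusted p = 3.95e-07 and 3.74e-08). The Ncl gene holds 3 small nucleolar RNA genes in its transcribed span, Snora75, Snord82 and Gm24148.

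Nucleophosmin (Npm1, chr11:33152287-33163206), a histone chaperone of the outer nucleolus, had the highest level of all members. Npm1 was in WT at 1911 and 1996 FPKM at day 0, 919 and 938 at day 8, and 663 and 633 at day 16. Npm1 in 1343KO libraries stood at 1892 and 1843 FPKM at day 0, 1638 and 1661 at day 8, and 1612 and 1509 at day 16. The later 1343KO libraries lay just under those of day 0, and the later WT libraries far below, with no overlap between the lines at days 8 and 16. The WT fall by day 16 was -1.59 ± 0.05 (adjusted p = 1.32e-08) and that of the 1343KO line -0.26 ± 0.05 (adjusted p = 0.00406). The fall to day 8 in the 1343KO line (-0.18, adjusted p = 0.0258) did not pass with no filter on low genes (0.0732), with only the libraries compared (0.146), without 1343KO day 0 replicate 1 (0.118), without 1343KO day 0 replicate 2 (0.0664), without 1343KO day 8 replicate 1 (0.0977) or without 1343KO day 8 replicate 2 (0.0755). The fall to day 16 in that line did not pass with only the libraries compared (0.0732).

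Nolc1 (chr19:46075863-46085530), a chaperone of small nucleolar ribonucleoproteins, went on falling in WT between days 8 and 16. It was in WT at 119 and 129.6 FPKM at day 0, 37.1 and 37.2 at day 8, and 19.02 and 20.6 at day 16. Nolc1 in the 1343KO line was at 111 and 110.5 FPKM at day 0, 71.1 and 75.3 at day 8, and 74.4 and 78.4 at day 16. Each WT group lay below the one before it, while the 1343KO groups of days 8 and 16 overlapped each other. Nolc1 fell by 0.88 ± 0.07 between days 8 and 16 in WT (adjusted p = 3.88e-05) and its change in the 1343KO line was 0.06 ± 0.07 (adjusted p = 0.803). The helicase Ddx21 (chr10:62580251-62602281), which acts in rRNA transcription and processing, had the largest fall of all members in WT by day 16 on the log2 scale. In WT Ddx21 was at 119 and 123 FPKM at day 0, 24.5 and 25.6 at day 8, and 15.8 and 15.6 at day 16. Ddx21 levels in the 1343KO line were 113 and 114 FPKM at day 0, 62.7 and 66.4 at day 8, and 61.8 and 63.5 at day 16. No library of days 8 and 16 overlapped between the lines, and the day 8 and 16 groups of the 1343KO line overlapped. The WT fall was -2.86 ± 0.06 by day 16 (adjusted p = 2.35e-09), against -0.85 ± 0.06 in the 1343KO line (adjusted p = 2.81e-05). Treacle (Tcof1), a scaffold of RNA polymerase I transcription, was in WT at 45.9 and 46.8 FPKM at day 0, 12.02 and 13.2 at day 8, and 8.46 and 8.88 at day 16. Tcof1 in 1343KO libraries stood at 42.6 and 46.1 FPKM at day 0, 27.8 and 28.4 at day 8, and 27.97 and 28.2 at day 16. Its difference between the lines was 1.10 ± 0.09 at day 8 and 1.59 ± 0.09 at day 16.

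RNA polymerase I genes fell in WT (7 of 7 at day 8, median -1.23, against 24.5% of all tested genes). By day 8, 3 of 7 fell in the 1343KO line (median -0.32, against 8.51%). At day 8, 6 of 7 were higher in the 1343KO line (median 1.02, against 23.3%), and at day 16 again 6 of 7 (median 1.32, against 28.5%). Polr1a (chr6:71909053-71984935), the largest subunit of the polymerase, was in WT at 26.7 and 29.3 FPKM at day 0, 15.98 and 15.2 at day 8, and 10.5 and 9.27 at day 16. Polr1a in the 1343KO line was at 33.8 and 32.7 FPKM at day 0, 23.7 and 25.7 at day 8, and 27.9 and 24.6 at day 16. Its day 16 WT libraries were the lowest and its day 0 libraries of the 1343KO line the highest. Polr1a was higher in the 1343KO line by 0.63 ± 0.10 at day 8 and 1.32 ± 0.10 at day 16 (adjusted p = 0.00106 and 6.56e-06). Polr1b (chr2:129100995-129126594), the second catalytic subunit, was in WT at 33.1 and 39.1 FPKM at day 0, 7.57 and 9.01 at day 8, and 5.696 and 6.49 at day 16. Polr1b levels in the 1343KO line were 33.3 and 34.4 FPKM at day 0, 22.8 and 31.9 at day 8, and 22.9 and 23.3 at day 16. The 2 libraries of day 8 in the 1343KO line stood apart from each other, yet both were above all WT libraries of days 8 and 16. Polr1b fell by 1.997 ± 0.16 in WT by day 8 (adjusted p = 7.35e-06), and its change in the 1343KO line was -0.32 ± 0.16 (adjusted p = 0.192).

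Rrn3 (chr16:13780708-13814839), the initiation factor that brings the polymerase to the rRNA promoter and whose own promoter held a pair of E-boxes, was in WT at 76.3 and 78.01 FPKM at day 0, 22.8 and 22.1 at day 8, and 14.8 and 15.6 at day 16. Rrn3 in 1343KO libraries stood at 81.5 and 79.7 FPKM at day 0, 61.2 and 60.9 at day 8, and 58.8 and 56.6 at day 16. Replicates were close in every group, and each line's groups followed the order of the days without overlap. Rrn3 fell by 1.74 ± 0.07 in WT and by 0.40 ± 0.07 in the 1343KO line by day 8 (adjusted p = 8.41e-08 and 0.00275). Ubtf (chr11:102304560-102319742), the protein that keeps rRNA genes open, was in WT at 64.3 and 64.3 FPKM at day 0, 25.3 and 25.97 at day 8, and 22.4 and 24.1 at day 16. Ubtf in the 1343KO line was at 71.2 and 70.5 FPKM at day 0, 52.3 and 53.6 at day 8, and 49.1 and 53.7 at day 16. Between days 8 and 16 the change of Ubtf in WT was -0.14 ± 0.07 (adjusted p = 0.21), after -1.29 ± 0.07 by day 8 (adjusted p = 8.23e-07). Its difference between the lines was 1.02 ± 0.07 at day 8 and 1.11 ± 0.07 at day 16 (adjusted p = 6.93e-06 and 2.09e-06).

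In Polr1d the lines lay closest at days 8 and 16, and in Polr1e replicates lay farthest apart. Polr1d (chr5:147077050-147111597), a subunit shared with RNA polymerase III, was in WT at 99.8 and 106 FPKM at day 0, 60.1 and 70.2 at day 8, and 58.9 and 62.5 at day 16. Polr1d levels in the 1343KO line were 88.98 and 88.1 FPKM at day 0, 75.9 and 70.4 at day 8, and 62.1 and 77.05 at day 16. The lines overlapped at day 16, where the difference was 0.19 ± 0.11 (adjusted p = 0.188), with a 95% confidence interval of -0.06 to 0.43. At day 8 it was 0.17 ± 0.11 (adjusted p = 0.254). Polr1e (chr4:45018583-45036565), a subunit that helps initiation and whose gene overlaps Fbxo10, was in WT at 22.6 and 24.7 FPKM at day 0, 6.75 and 13.1 at day 8, and 2.93 and 4.94 at day 16. Polr1e in 1343KO libraries stood at 24.6 and 15.1 FPKM at day 0, 25.8 and 18.8 at day 8, and 24.2 and 14.8 at day 16. The 3 groups of the 1343KO line overlapped one another. Polr1e was higher in the 1343KO line at day 16 by 2.05 ± 0.36 (adjusted p = 0.00104). The day 8 difference of Polr1e (1.14 ± 0.36, adjusted p = 0.029) did not pass with TPM scaling (0.0567), with no filter on low genes (0.0748), with only the libraries compared (0.0926), without 1343KO day 8 replicate 1 (0.148) or without WT day 8 replicate 1 (0.199). Its WT fall to day 8 (-1.23, adjusted p = 0.017) did not pass with only the libraries compared (0.0552), without WT day 0 replicate 1 (0.0509), without WT day 0 replicate 2 (0.0738) or without WT day 8 replicate 1 (0.131). The WT fall between days 8 and 16 (-1.12, adjusted p = 0.0457) did not pass with median-of-ratios scaling (0.0515), with no filter on low genes (0.102), with only the libraries compared (0.164), with the replicate number as a block (0.0628), without 1343KO day 8 replicate 1 (0.0551), without 1343KO day 8 replicate 2 (0.055), without WT day 0 replicate 1 (0.0626), without WT day 0 replicate 2 (0.0625), without WT day 16 replicate 1 (0.24), without WT day 16 replicate 2 (0.055) or without WT day 8 replicate 2 (0.275). Polr1c, a subunit shared with RNA polymerase III, was at 20.8 to 66.1 FPKM, fell in WT by day 8 and was higher in the 1343KO line at days 8 and 16.

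**Figure D4:**
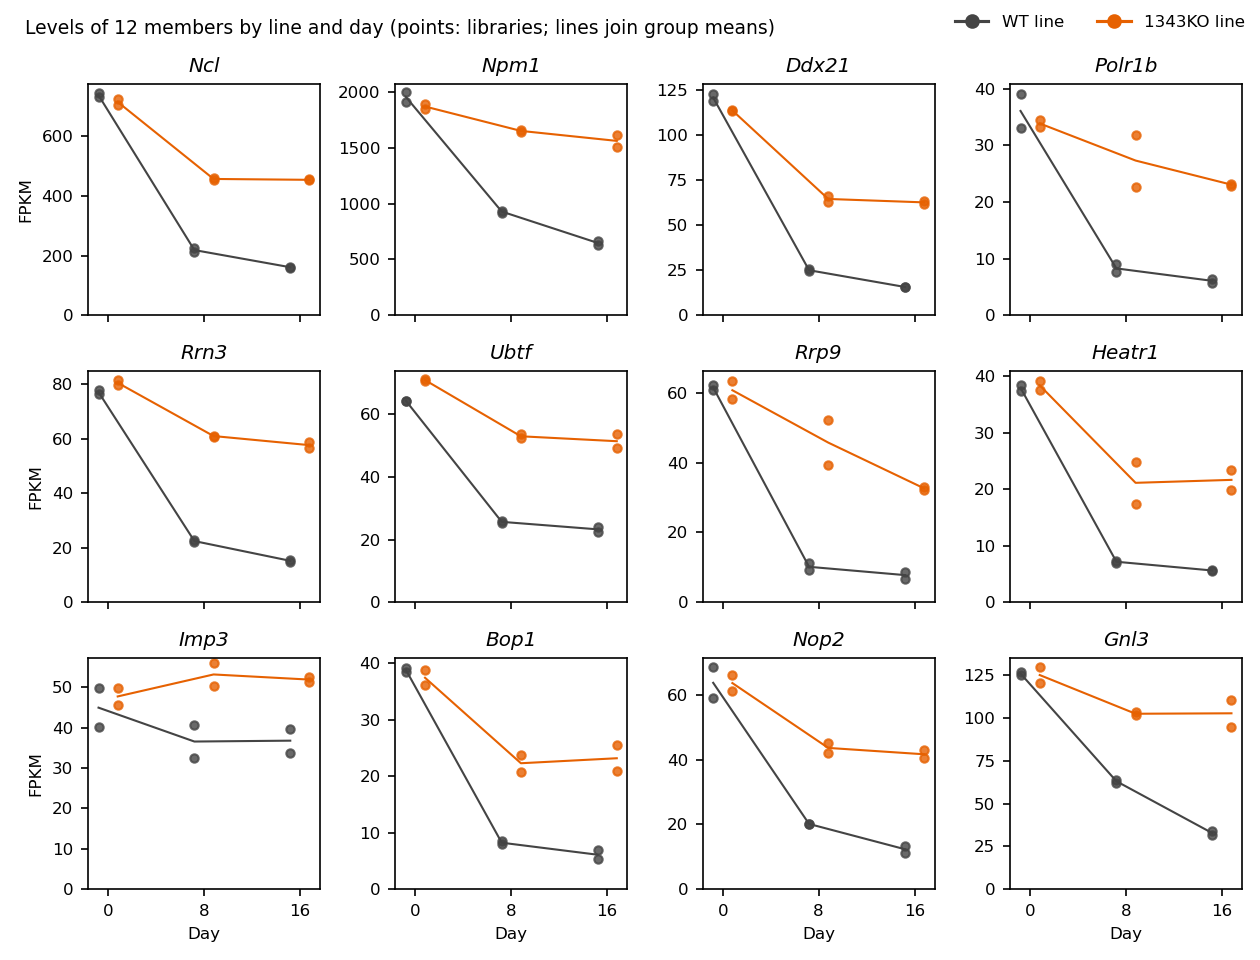
FPKM of 12 members by day, with WT in grey and the 1343KO line in orange; points are libraries, set slightly apart for sight, and lines join the means of 2 libraries. In every panel the 1343KO line lies above WT at days 8 and 16, and in every panel the WT line drops by day 8, least in that of Imp3, to 81.3% of day 0.

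Small subunit factors fell in WT (21 of 22 at day 8, median -1.19, against 24.5% of all tested genes). By day 8, 12 of 22 fell in the 1343KO line (median -0.42, against 8.51%). They were higher in the 1343KO line for 21 of 22 at day 8 (median 0.81, against 23.3%) and 22 of 22 at day 16 (median 1.24, against 28.5%). Rrp9 (chr9:106475963-106485424), a protein of the U3 ribonucleoprotein, had the largest fall to day 8 and the largest difference between the lines at that day. In WT Rrp9 was at 60.9 and 62.3 FPKM at day 0, 11.2 and 9.16 at day 8, and 6.79 and 8.77 at day 16. Rrp9 in the 1343KO line was at 63.4 and 58.2 FPKM at day 0, 52.3 and 39.2 at day 8, and 33.2 and 32.1 at day 16. The WT libraries of days 8 and 16 were the lowest, and the 1343KO libraries stepped down from day 0 to day 16 with no overlap between days. Rrp9 fell by 2.49 ± 0.16 in WT by day 8 (adjusted p = 1.57e-06) and was 2.06 ± 0.16 higher in the 1343KO line (adjusted p = 9.81e-06). By day 16 it had fallen by 0.88 ± 0.16 in the 1343KO line (adjusted p = 0.0033). The Rrp9 gene overlaps Parp3.

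Heatr1 (chr13:12395027-12440289), which joins the processome to rRNA transcription and overlaps Lgals8, was in WT at 37.4 and 38.4 FPKM at day 0, 7.02 and 7.304 at day 8, and 5.73 and 5.497 at day 16. Heatr1 levels in the 1343KO line were 39.2 and 37.6 FPKM at day 0, 24.8 and 17.5 at day 8, and 19.8 and 23.5 at day 16. Both lines were lower after day 0, and every WT library of days 8 and 16 was under every 1343KO library. It fell by 2.25 ± 0.15 in WT by day 8 (adjusted p = 2.41e-06), and by 0.85 ± 0.15 in the 1343KO line (adjusted p = 0.00363, or 0.0873 with only the 4 libraries compared). Wdr75 (chr1:45795166-45823619), of the same early complex, was in WT at 60.4 and 62.7 FPKM at day 0, 25.7 and 28.2 at day 8, and 13.3 and 13.5 at day 16. Wdr75 in 1343KO libraries stood at 73.9 and 64.1 FPKM at day 0, 46.5 and 45.5 at day 8, and 50.5 and 40.1 at day 16. Wdr75 was lower in WT at day 16 than at day 8 with no overlap (-0.95 ± 0.11, adjusted p = 0.000322), and in the 1343KO line those days overlapped (-0.03 ± 0.11, adjusted p = 0.956). Utp15, also of that complex, was in WT at 19.1 and 17.8 FPKM at day 0, 8.73 and 9.72 at day 8, and 8.13 and 8.97 at day 16. Utp15 in the 1343KO line was at 19.1 and 18.6 FPKM at day 0, 15.7 and 19.4 at day 8, and 17.9 and 14.96 at day 16. Utp15 fell by 0.93 ± 0.13 in WT by day 8 (adjusted p = 0.000318), and its days 8 and 16 overlapped in WT.

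Nop14 (chr5:34638536-34660148), a processome protein that helps cut the small subunit rRNA, was in WT at 31.05 and 29.6 FPKM at day 0, 15.8 and 17.6 at day 8, and 10.03 and 10.7 at day 16. Nop14 levels in the 1343KO line were 33.9 and 35.1 FPKM at day 0, 22.4 and 27.2 at day 8, and 23.7 and 23.9 at day 16. Its difference between the lines was 1.13 ± 0.11 at day 16 (adjusted p = 2.25e-05) and 0.54 ± 0.11 at day 8, where the adjusted p was 0.00319, or 0.0518 with only the 4 libraries compared. Utp20 (chr10:88746607-88826804), a very large scaffold protein, was in WT at 21.6 and 25.5 FPKM at day 0, 10.1 and 8.85 at day 8, and 5.94 and 4.98 at day 16. Utp20 in 1343KO libraries stood at 25.6 and 31.2 FPKM at day 0, 13.3 and 14.2 at day 8, and 11.6 and 15.6 at day 16. It had the largest falls of any member in the 1343KO line, -0.99 ± 0.17 by day 8 and -1.02 ± 0.17 by day 16 (adjusted p = 0.00299 and 0.00231, the latter 0.0588 with only the 4 libraries compared). The day 8 difference of Utp20 between the lines (0.49, adjusted p = 0.0407) did not pass with TPM scaling (0.177), with median-of-ratios scaling (0.0816), with no filter on low genes (0.0725), without 1343KO day 8 replicate 1 (0.0899), without 1343KO day 8 replicate 2 (0.148), without WT day 8 replicate 1 (0.068) or without WT day 8 replicate 2 (0.182). Utp18, a processome protein, was in WT at 30.96 and 29.5 FPKM at day 0, 16.7 and 14.7 at day 8, and 9.53 and 9.16 at day 16. Utp18 in the 1343KO line was at 31.5 and 29.1 FPKM at day 0, 28.3 and 24.8 at day 8, and 21.4 and 25.5 at day 16. Its libraries of day 16 did not overlap between the lines (1.24 ± 0.12, adjusted p = 2.08e-05).

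Imp3, Imp4 and Mphosph10 form a complex that pairs the U3 RNA with the rRNA precursor. Imp3 had the smallest changes from day 0 of all members in WT. Imp3 (chr9:56937475-56938398) was in WT at 49.8 and 40.2 FPKM at day 0, 32.6 and 40.6 at day 8, and 33.8 and 39.8 at day 16. Imp3 levels in the 1343KO line were 45.7 and 49.9 FPKM at day 0, 50.4 and 56.1 at day 8, and 51.3 and 52.6 at day 16. Its WT libraries of days 0 and 8 overlapped, and the change to day 8 was -0.29 ± 0.14 (adjusted p = 0.107). In the 1343KO line the change to day 8 was 0.15 ± 0.14 (adjusted p = 0.478). The lines differed by 0.53 ± 0.14 at day 8 and 0.49 ± 0.14 at day 16 (adjusted p = 0.0117 and 0.0139). The day 8 difference of Imp3 did not pass with TPM scaling (0.0804), with only the libraries compared (0.057), without 1343KO day 8 replicate 2 (0.0734) or without WT day 8 replicate 1 (0.09), and that of day 16 with TPM scaling (0.0579), with median-of-ratios scaling (0.0916), without 1343KO day 16 replicate 2 (0.0618) or without WT day 16 replicate 1 (0.0983). Imp4 (chr1:34439851-34449356) was in WT at 23.1 and 27.9 FPKM at day 0, 9.51 and 9.196 at day 8, and 16.2 and 12.3 at day 16. Imp4 in 1343KO libraries stood at 40.5 and 36.7 FPKM at day 0, 26.8 and 29.9 at day 8, and 33.96 and 22.1 at day 16. Its WT libraries of day 16 were above those of day 8, the only member with a positive change and no overlap between those days (0.55 ± 0.20, adjusted p = 0.0696), and it passed with median-of-ratios scaling and when either 1343KO day 16 library was left out. The lines differed by 1.502 ± 0.20 at day 8 (adjusted p = 0.000266) and 0.91 ± 0.20 at day 16 (adjusted p = 0.00363, or 0.0636 with only the 4 libraries compared). Imp4 also had the largest difference of all members at day 0 (0.58), with no overlap, though no member passed there. The difference between the falls of Imp4 to day 16 was 0.33 ± 0.28 by the limma interaction (adjusted p = 0.387). That to day 8 passed in the main fit but was lost under 10 of the 20 alternatives. These were TPM scaling (0.0742), median-of-ratios scaling (0.0556), no filter on low genes (0.0796) and the leaving out of single libraries. Mphosph10 was at 9.38 to 41.6 FPKM, fell in both lines by day 8, and was higher in the 1343KO line at days 8 and 16.

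Nat10 and Dimt1 are enzymes that modify rRNA of the small subunit. Nat10 (chr2:103721256-103761270), which acetylates the rRNA, was in WT at 25.1 and 25.3 FPKM at day 0, 8.79 and 8.98 at day 8, and 8.55 and 10.1 at day 16. Nat10 in the 1343KO line was at 26.8 and 25.3 FPKM at day 0, 22.8 and 23.1 at day 8, and 25.4 and 21.5 at day 16. Nat10 fell by 1.40 ± 0.11 in WT by day 8 (adjusted p = 6.79e-06), and its change after that was 0.06 ± 0.11 (adjusted p = 0.761). The 1343KO libraries of day 16 overlapped those of day 0. Dimt1 (chr13:106947127-106960224), which adds methyl groups to the rRNA and overlaps Kif2a, was in WT at 19.02 and 20.3 FPKM at day 0, 12.2 and 13.01 at day 8, and 5.37 and 6.09 at day 16. Dimt1 levels in the 1343KO line were 20.6 and 22.0 FPKM at day 0, 15.8 and 16.3 at day 8, and 16.3 and 17.2 at day 16. The larger part of its WT fall came between days 8 and 16 (-1.02 ± 0.10, adjusted p = 0.000129), after -0.60 ± 0.10 by day 8. Its day 8 difference between the lines (0.33, adjusted p = 0.0303) did not pass with TPM scaling (0.332), with median-of-ratios scaling (0.0863), with only the libraries compared (0.0651), without 1343KO day 8 replicate 1 (0.077), without 1343KO day 8 replicate 2 (0.113), without WT day 8 replicate 1 (0.139) or without WT day 8 replicate 2 (0.0627), and its day 16 difference was 1.40 ± 0.10 (adjusted p = 4.34e-06).

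Utp3 and Ddx52 had the smallest called falls in WT by day 8. Utp3, a processome protein, was in WT at 59.98 and 53.5 FPKM at day 0, 37.4 and 39.8 at day 8, and 38.2 and 37.7 at day 16. Utp3 in 1343KO libraries stood at 68.99 and 68.4 FPKM at day 0, 63.3 and 59.4 at day 8, and 63.01 and 61.7 at day 16. Its WT fall was -0.56 ± 0.08 by day 16 (adjusted p = 0.000142), and the lines differed by 0.70 ± 0.08 (adjusted p = 4.96e-05). The helicase Ddx52 was in WT at 19.4 and 23.2 FPKM at day 0, 14.1 and 14.8 at day 8, and 12.96 and 11.3 at day 16. Ddx52 in the 1343KO line was at 18.97 and 16.6 FPKM at day 0, 16.6 and 16.2 at day 8, and 19.6 and 17.4 at day 16. Its 1343KO libraries of day 16 overlapped those of day 0, the WT fall was -0.52 ± 0.13 by day 8 (adjusted p = 0.00647, or 0.0559 without WT day 0 replicate 2), and the lines differed by 0.17 ± 0.13 at day 8 (adjusted p = 0.306). Ltv1, which leaves the small subunit late in its assembly, was in WT at 30.6 and 31.7 FPKM at day 0, 16.5 and 14.2 at day 8, and 14.4 and 13.4 at day 16. Ltv1 levels in the 1343KO line were 32.1 and 31.2 FPKM at day 0, 28.9 and 24.8 at day 8, and 23.2 and 26.1 at day 16. The lines differed by 0.78 ± 0.11 at day 16 (adjusted p = 0.000292). Ddx10, another helicase, was in WT at 35.4 and 38.01 FPKM at day 0, 16.03 and 15.7 at day 8, and 10.5 and 11.02 at day 16. Ddx10 in 1343KO libraries stood at 36.6 and 37.1 FPKM at day 0, 26.7 and 25.1 at day 8, and 27.97 and 26.2 at day 16. The other small subunit members (Wdr43, Noc4l, Rrp12, Bysl, Tsr1 and Emg1) all fell in WT by day 8, and all were higher in the 1343KO line at days 8 and 16. Their levels ran from 1.29 FPKM (Rrp12) to 117 (Wdr43).

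Large subunit factors fell in WT (18 of 18 at day 8, median -1.34, against 24.5% of all tested genes). By day 8, 10 of 18 fell in the 1343KO line (median -0.39, against 8.51%). At day 8, 16 of 18 were higher in the 1343KO line (median 0.87, against 23.3%), and at day 16 all 18 (median 1.55, against 28.5%). Bop1, Pes1 and Wdr12 form the PeBoW complex, which is needed to process the rRNA of the large subunit. Bop1 (chr15:76452989-76477277), which overlaps Scx and Mroh1, was in WT at 38.5 and 39.2 FPKM at day 0, 8.45 and 7.99 at day 8, and 5.32 and 6.86 at day 16. Bop1 in the 1343KO line was at 38.8 and 36.1 FPKM at day 0, 23.8 and 20.8 at day 8, and 20.9 and 25.5 at day 16. It fell by 2.11 ± 0.14 in WT by day 8 (adjusted p = 1.95e-06), and its libraries did not overlap between the lines after day 0. Pes1 (chr11:3963975-3980004) was in WT at 89.9 and 65.3 FPKM at day 0, 40.2 and 41.3 at day 8, and 29.2 and 23.7 at day 16. Pes1 levels in the 1343KO line were 87.3 and 98.1 FPKM at day 0, 66.2 and 57.5 at day 8, and 76.8 and 79.8 at day 16. The day 0 libraries of WT were far apart, and the lines differed by 1.54 ± 0.15 at day 16 (adjusted p = 2.78e-05). The day 8 difference (0.59, adjusted p = 0.0121) did not pass with TPM scaling (0.0608), without 1343KO day 8 replicate 1 (0.0785) or without WT day 8 replicate 1 (0.0576). Wdr12 (chr1:60069785-60098645), which overlaps Carf, was in WT at 28.8 and 30.6 FPKM at day 0, 13.9 and 17.4 at day 8, and 6.25 and 5.11 at day 16. Wdr12 in 1343KO libraries stood at 27.8 and 27.5 FPKM at day 0, 31.9 and 16.8 at day 8, and 31.98 and 27.8 at day 16. One of its 1343KO day 8 libraries lay among those of WT day 8, so the lines overlapped at day 8 (0.55 ± 0.24, adjusted p = 0.103), and at day 16 it had the largest difference of all members (2.21 ± 0.24, adjusted p = 5.72e-05). In WT it fell by 1.32 ± 0.24 between days 8 and 16 (adjusted p = 0.00363). The WT fall of Wdr12 to day 8 (-0.89, adjusted p = 0.0132) did not pass without WT day 0 replicate 2 (0.0612) or without WT day 8 replicate 1 (0.0859).

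Nop2 (chr6:125131909-125144753), a methyltransferase of large subunit rRNA whose promoter is printed above, was in WT at 68.4 and 58.95 FPKM at day 0, 20.02 and 20.2 at day 8, and 11.2 and 13.4 at day 16. Nop2 in the 1343KO line was at 66.2 and 61.04 FPKM at day 0, 42.1 and 45.1 at day 8, and 40.4 and 42.8 at day 16. The lines overlapped at day 0 and at no later day, with differences of 1.08 ± 0.11 at day 8 and 1.68 ± 0.11 at day 16 (adjusted p = 5.1e-05 and 1.72e-06). Rrp1b (chr17:32036100-32062865), found with precursors of the large subunit, was in WT at 42.2 and 46.3 FPKM at day 0, 17.7 and 13.6 at day 8, and 6.08 and 7.67 at day 16. Rrp1b levels in the 1343KO line were 48.6 and 44.3 FPKM at day 0, 23.4 and 25.1 at day 8, and 25.5 and 28.5 at day 16. It fell in both lines by day 8, by 1.45 ± 0.14 in WT and 0.91 ± 0.14 in the 1343KO line (adjusted p = 2.86e-05 and 0.00195), and further by 1.08 ± 0.14 in WT after that (adjusted p = 0.000567). Its day 8 difference between the lines (0.61, adjusted p = 0.00725) did not pass with only the libraries compared (0.0527) or without WT day 8 replicate 2 (0.0581). Noc3l (chr19:38788128-38819237), which helps the early large subunit leave the nucleolus, was in WT at 16.2 and 16.97 FPKM at day 0, 4.34 and 4.51 at day 8, and 3.83 and 2.97 at day 16. Noc3l in 1343KO libraries stood at 19.6 and 17.99 FPKM at day 0, 10.96 and 10.4 at day 8, and 10.8 and 10.5 at day 16. It fell by 0.76 ± 0.13 in the 1343KO line by day 8 (adjusted p = 0.00285), one of the 5 largest falls of that line.

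Nucleostemin (Gnl3, chr14:31012433-31019152), a nucleolar GTPase known for its level in stem cells and overlapping Pbrm1, was in WT at 125 and 127 FPKM at day 0, 62.1 and 64.1 at day 8, and 31.8 and 33.7 at day 16. Gnl3 in the 1343KO line was at 130.1 and 120.3 FPKM at day 0, 103 and 102 at day 8, and 111 and 94.9 at day 16. Its mean FPKM in WT was 50.03% of day 0 at day 8 and 25.98% at day 16, and in the 1343KO line 81.9% and 82.1%. The lines differed by 0.69 ± 0.08 at day 8 and 1.62 ± 0.08 at day 16 (adjusted p = 0.000133 and 4.22e-07). Its own fall in the 1343KO line to day 8 (-0.28, adjusted p = 0.0328) did not pass with only the libraries compared (0.0771), without 1343KO day 0 replicate 1 (0.161), without 1343KO day 0 replicate 2 (0.0542), without 1343KO day 8 replicate 1 (0.0935) or without 1343KO day 8 replicate 2 (0.125). Its relative Gnl3l (chrX:150983141-151017322) was in WT at 38.02 and 38.8 FPKM at day 0, 17.7 and 20.7 at day 8, and 15.0 and 14.6 at day 16. Gnl3l levels in the 1343KO line were 41.8 and 39.7 FPKM at day 0, 34.7 and 34.6 at day 8, and 29.98 and 29.7 at day 16. The lines differed by 0.96 ± 0.09 at day 16 (adjusted p = 1.77e-05). Gnl2, another GTPase of the family, was in WT at 43.3 and 41.6 FPKM at day 0, 29.4 and 23.6 at day 8, and 19.5 and 21.5 at day 16. Gnl2 in 1343KO libraries stood at 47.3 and 40.96 FPKM at day 0, 39.8 and 39.4 at day 8, and 34.7 and 41.3 at day 16. Gnl2 kept the most of its day 0 level in WT among the large subunit factors, 48.3% at day 16.

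Rpf2 (chr10:40223246-40247036), which brings the 5S ribonucleoprotein to the large subunit, was in WT at 53.05 and 57.1 FPKM at day 0, 15.2 and 19.2 at day 8, and 9.42 and 10.4 at day 16. Rpf2 in the 1343KO line was at 54.2 and 58.3 FPKM at day 0, 46.4 and 42.9 at day 8, and 38.7 and 44.4 at day 16. Its WT groups were lower at each later day with no overlap, and the lines differed by 1.96 ± 0.12 at day 16 (adjusted p = 1.56e-06). Rpf1, of the same protein family, was in WT at 41.9 and 40.9 FPKM at day 0, 18.4 and 19.9 at day 8, and 12.7 and 15.2 at day 16. Rpf1 levels in the 1343KO line were 43.8 and 41.3 FPKM at day 0, 26.6 and 28.8 at day 8, and 25.4 and 29.9 at day 16. Nle1 (chr11:82900768-82908411), which is removed from the large subunit during its maturation, was in WT at 17.1 and 15.4 FPKM at day 0, 3.96 and 5.96 at day 8, and 3.46 and 5.07 at day 16. Nle1 in 1343KO libraries stood at 14.03 and 12.5 FPKM at day 0, 10.9 and 10.9 at day 8, and 13.1 and 12.9 at day 16. Its day 16 libraries overlapped those of day 0 in the 1343KO line (-0.03 ± 0.19, adjusted p = 0.952), and the lines differed by 1.43 ± 0.19 at day 16 (adjusted p = 0.000205). The helicase Ddx18 (chr1:121553835-121567989) was in WT at 73.1 and 70.9 FPKM at day 0, 23.3 and 22.7 at day 8, and 16.8 and 18.6 at day 16. Ddx18 in the 1343KO line was at 74.2 and 70.4 FPKM at day 0, 48.1 and 45.4 at day 8, and 48.5 and 46.8 at day 16. It fell in both lines by day 8, by 1.61 ± 0.08 and 0.62 ± 0.08 (adjusted p = 3.21e-07 and 0.000544). Noc2l, the partner of Noc3l, was in WT at 63.5 and 59.03 FPKM at day 0, 38.4 and 35.5 at day 8, and 21.1 and 26.8 at day 16. Noc2l levels in the 1343KO line were 53.5 and 60.02 FPKM at day 0, 48.98 and 43.3 at day 8, and 47.8 and 51.6 at day 16. It differed by 0.31 ± 0.12 at day 8 (adjusted p = 0.0658) and by 1.03 ± 0.12 at day 16 (adjusted p = 8.59e-05). Nop16, an early large subunit factor, was in WT at 30.5 and 27.1 FPKM at day 0, 16.97 and 15.97 at day 8, and 12.2 and 11.7 at day 16. Nop16 in 1343KO libraries stood at 33.9 and 27.8 FPKM at day 0, 21.8 and 24.9 at day 8, and 23.2 and 23.9 at day 16. Its day 16 difference was 0.92 ± 0.12 (adjusted p = 0.000149). The other large subunit members (Ftsj3, Ebna1bp2 and Mrto4) all fell in WT by day 8, and all were higher in the 1343KO line at days 8 and 16. Their levels ran from 12.4 FPKM (Mrto4) to 97.6 (Ebna1bp2).

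Among roles, the nucleolar proteins kept the least of their day 0 level in WT at day 16, with a median of 18.7%, and the polymerase genes the most, 35.3%, with 31.4% for small and 25.3% for large subunit factors. In the 1343KO line the medians at day 16 were 63.5% for nucleolar proteins, 78.6% for the polymerase, 72.9% for small and 75.1% for large subunit factors. The ranges of the roles overlapped in both lines. By single members, the WT levels at day 16 ran from 12.6% of day 0 (Rrp9) to 81.8% (Imp3), and the 1343KO levels from 47.9% (Utp20) to 108.7% (Imp3). Members without an E-box in the promoter had a median WT change of -1.26 to day 8 (34 members), and members with an E-box -1.35 (11 members). By day 16 the order was the other way, with -1.92 and -1.62.

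Genes of the pathway that are no members were counted from separate lists. The median change of all tested genes was 0.00 in WT and 0.07 in the 1343KO line by day 8, and their median difference between the lines was 0.06 at that day. By day 8, 24.5% of all tested genes fell and 26.8% rose in WT, and 8.51% fell in the 1343KO line. Between the lines, 23.3% were higher and 19.6% lower in 1343KO at day 8, and 28.5% were higher at day 16. Of 33 other small subunit factors, 27 fell in WT by day 8 (median -1.12), 16 fell in the 1343KO line (median -0.42), and 22 were higher in the 1343KO line at day 8 (median 0.65). Of 41 other large subunit factors, 32 fell and 1 rose in WT by day 8 (median -0.98), 20 fell in the 1343KO line (median -0.40), and at day 8 the 1343KO line had 30 higher and 2 lower (median 0.68). Of 13 other RNA polymerase I genes, 9 fell in WT by day 8 (median -0.91), 3 fell in the 1343KO line (median -0.19), and 9 were higher in it at day 8 (median 0.65). The 12 core proteins of small nucleolar ribonucleoproteins, such as Fbl, the methyltransferase that the guide RNAs direct, all fell in WT by day 8 (median -1.25) and 7 fell in the 1343KO line (median -0.37). Of these 12, 9 were higher in the 1343KO line at day 8 (median 0.95) and all 12 at day 16 (median 1.64).

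Ribosomal proteins, which the factors assemble into the ribosome, were counted apart. Of 78 cytosolic ribosomal protein genes, 37 fell and 4 rose in WT by day 8 (median -0.18), where 24.5% of all tested genes fell and 26.8% rose, and 70 fell by day 16 (median -0.52). In the 1343KO line 56 rose and none fell by day 8 (median 0.29), against 15.0% of all tested genes that rose and 8.51% that fell. That rise depended on the scaling, with 46 risen and 1 fallen under median-of-ratios scaling and 29 risen and 1 fallen under TPM scaling. At day 16 of the 1343KO line, 44 had risen and 1 had fallen (median 0.24), against 18.2% and 8.6% of all tested genes, or 22 and 1 under median-of-ratios scaling and 30 and 1 under TPM scaling. Between the lines, with the deposited scaling, 72 of 78 were higher in the 1343KO line at day 8 (median 0.49), against 23.3% of all tested genes. At day 16, 77 of 78 were (median 0.74), against 28.5%, so ribosomal protein genes shared the direction of the members' line difference.

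**Figure D5:**
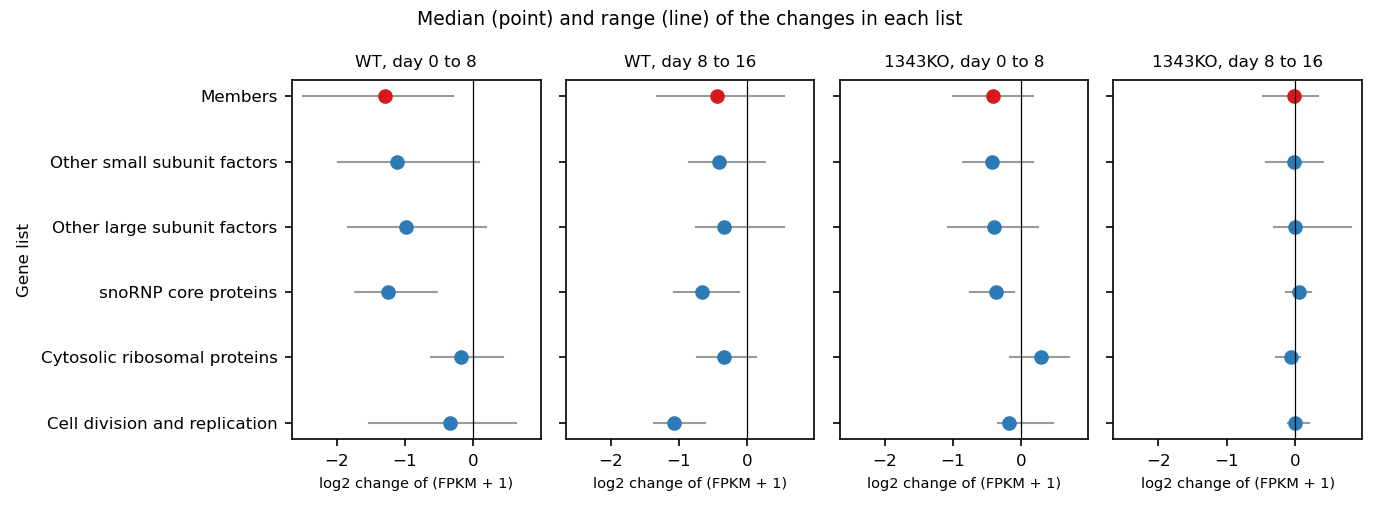
Median (point) and range (line) of the log2(FPKM + 1) changes of the members (red) and 5 other lists (blue) over 4 intervals, from day 0 to 8 and from day 8 to 16 in each line. The members and other assembly factors lie near -1 or below in WT by day 8, ribosomal proteins lie near 0, and cell division genes fall in WT after day 8.

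Myc and Mycn, which are known to drive transcription of biogenesis genes, were measured beside the members, and their part in the members' changes was not tested. Myc was in WT at 46.7 and 47.8 FPKM at day 0, 11.7 and 10.8 at day 8, and 6.95 and 6.97 at day 16. Myc in the 1343KO line was at 36.4 and 37.4 FPKM at day 0, 9.83 and 10.8 at day 8, and 11.9 and 10.1 at day 16. Myc fell in both lines by day 8 (by 1.98 ± 0.10 in WT and 1.75 ± 0.10 in the 1343KO line, adjusted p = 5.53e-07 and 7.68e-06), and at that day the lines differed by -0.11 ± 0.10 (adjusted p = 0.417). At day 16 Myc was 0.59 ± 0.10 higher in the 1343KO line (adjusted p = 0.00115). Mycn was in WT at 70.3 and 72.0 FPKM at day 0, 38.5 and 40.1 at day 8, and 19.0 and 21.8 at day 16. Mycn levels in the 1343KO line were 90.4 and 89.3 FPKM at day 0, 56.0 and 52.1 at day 8, and 66.4 and 58.8 at day 16. It was higher in the 1343KO line by 0.45 ± 0.09 at day 8 and 1.57 ± 0.09 at day 16 (adjusted p = 0.0028 and 8.19e-07). The difference between the lines' falls was 0.12 ± 0.12 to day 8 (adjusted p = 0.527) and 1.24 ± 0.12 to day 16 (adjusted p = 7.12e-05).

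The partners and antagonists of Myc varied in direction. Mycl was higher in the 1343KO line by 0.75 ± 0.22 at day 8 and 1.03 ± 0.22 at day 16 (adjusted p = 0.0203 and 0.00304). Max, the partner that Myc needs to bind the E-box, differed by 1.08 ± 0.21 at day 8 (adjusted p = 0.00262) and 0.39 ± 0.21 at day 16 (adjusted p = 0.152). Mga, a repressor that also binds Max, was higher in the 1343KO line at days 8 and 16 by 0.65 ± 0.10 and 0.76 ± 0.10 (adjusted p = 0.000571 and 0.000139). Mxd4, which competes with Myc for Max, was lower in the 1343KO line, with differences of -0.76 ± 0.25 at day 8 and -1.47 ± 0.25 at day 16 (adjusted p = 0.0333 and 0.000811), and it rose in WT by 2.75 ± 0.25 from day 0 to day 16 (adjusted p = 9.63e-06). Mxi1 and Mxd1, of the same family, were lower in it at day 16, with differences of -0.64 ± 0.14 and -0.57 ± 0.19 (adjusted p = 0.00367 and 0.0278). Mxd3, Mnt, Mlx and Mlxip did not pass between the lines at day 8 or day 16.

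The cell makeup of the samples moved with the members, and its part in the result was not tested. The 8 pluripotency genes summed to 102 to 105 FPKM in WT at day 8 and 1302 to 1314 in the 1343KO line, and to 69.3 to 75.5 and 1141 to 1160 at day 16. Of these, Klf4 did not pass between the lines at day 16, at 13.1 and 10.0 FPKM in WT and 12.3 and 11.9 in the 1343KO line. The 8 yolk sac endoderm genes summed to 2589 to 2641 in WT at day 8 and 12224 to 12348 at day 16, against 153 to 170.3 and 103 to 111 in the 1343KO line. The 8 fibroblast genes reached 3829 to 3948 in WT at day 16, against 51.2 to 55.4. At day 8, 7 of these 8 were lower and 1 was higher in the 1343KO line, against 19.6% and 23.3% of all tested genes. The 8 macrophage genes reached 270.0 to 288 in WT at day 16, against 8.55 to 8.87 in the 1343KO line, where Tyrobp and C1qc were each listed at 0. The 6 red cell genes were at 1052 to 1174 in WT at day 8, against 2.31 to 5.35, where Alas2 was listed at 0. At day 16 the red cell genes were at 9.83 to 19.2 in WT and 20.9 to 28.0 in the 1343KO line, and none passed between the lines. In bulk samples, fewer cells of a type and less RNA per cell cannot be told apart. Of 12 cell division genes, 6 fell and 1 rose in WT by day 8 (median -0.34), against 24.5% and 26.8% of all tested genes. Between days 8 and 16, 12 of 12 fell in WT (median -1.06), against 13.5%. The day 8 comparison of the lines had 5 higher and 2 lower in 1343KO (median 0.09, or -0.10 with TPM scaling), against 23.3% and 19.6%. At day 16 all 12 were higher in the 1343KO line (median 1.22), against 28.5%. The part of cell division in the members' changes was not tested.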

How the data were processed

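Poly(A) RNA-seq levels of 12 libraries (6 groups of 2) were read from the authors' deposited table of FPKM per gene, which per the submitters' processing notes came from Cufflinks 2.1.1 on GRCm38 (mm10). The sources used here do not give the aligner, the annotation, the filters or the use of strand. Gene positions come from the deposited table, whose starts count from 0, so 1 was added, and for 51 of 52 members the result equals GENCODE M21.

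The fit took the 16289 genes that reached 1 FPKM in 2 or more libraries as log2(FPKM + 1), with 1 mean per group over all 12 libraries (6 residual degrees of freedom), with limma 3.58.1 in R 4.3.3 (lmFit, contrasts.fit, eBayes with trend, two-sided). The 11 contrasts were each adjusted by the Benjamini-Hochberg method over all tested genes and called at an adjusted p under 0.05. Tables were made with pandas 2.3.3 and numpy 2.4.6 and figures with matplotlib 3.10.9, in Python 3.11.15. The fit was checked on simulated data. FPKM are not counts, so depth was estimated from the steps of low values (1 to 3 fragments, transcripts of at least 1500 bases, an assumed fragment length of 200), of which 84.9% to 88.0% came out whole within 5%. Counting error is therefore known only roughly, and low genes carry more of it.

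The members and the other gene lists were chosen with earlier results of these data known. Values in every library are given for 18 members of known central role, for the 5 called members with the largest change in each direction of each contrast, and for up to 5 with the smallest. That makes 41, and the other members are given by range and counts. Genes of the Myc and Max network are named whatever their p. Alternatives were 0.1 as the pseudocount, all genes unfiltered, only genes averaging 5 FPKM or more, TPM scaling, median-of-ratios scaling, robust empirical Bayes, only the libraries compared, the replicate number as a block, and each library left out in turn.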

Additional observations from a re-analysis of the deposited data

Results flagged for a closer look

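The change from day 0 differed between the lines, by a line by time interaction in limma, for 37 of 52 members to day 8 and for 49 of 52 to day 16. The 1343KO line always had the higher change, a direction in which 15.6% and 21.7% of all tested genes passed. To day 8 the largest such differences on the log2(FPKM + 1) scale were 2.08 for Rrp9, 1.68 for Polr1b, 1.42 for Ddx21, 1.40 for Heatr1 and 1.39 for Bop1. To day 16 they were 2.33 for Polr1e, 2.31 for Wdr12, 2.06 for Nolc1, 2.01 for Ddx21 and 1.97 for Rrp9. Polr1e and Wdr12 were also the members whose 2 libraries of a group lay farthest apart, with standard errors of 0.51 and 0.35 for these differences.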

How the results depend on the processing

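Of 298 called changes of the 41 named members, 247 kept their direction and stayed past the threshold under each of 20 alternatives, and none of the 451 changes followed reversed while called. Counts of members moved most with only the libraries of the groups compared in the fit, where 16 fell in WT between days 8 and 16 and 17 fell in the 1343KO line from day 0 to day 8. Members that rose in WT between days 8 and 16 numbered 1 (Imp4) with median-of-ratios scaling and 0 to 1 with 1 library left out, the 1 being again Imp4, without either 1343KO day 16 library. With 1 library left out, members higher in the 1343KO line numbered 43 to 49 at day 8 and 50 to 52 at day 16. Members that fell numbered 49 to 52 (WT, to day 8), 51 to 52 (WT, to day 16), 24 to 30 (WT, day 8 to 16), 21 to 30 (1343KO, to day 8) and 27 to 33 (1343KO, to day 16), and the interaction passed for 34 to 38 and 48 to 50. A lone library left in a group was assumed to vary like the other groups.

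Replicate numbers did not pair the samples: deviations of same-numbered libraries correlated between -0.036 and 0.036 over 15 pairs of groups. With the replicate number as a block, 48 members were higher in the 1343KO line at day 8 and 51 at day 16, 51 and 51 had fallen in WT and 29 and 33 in the 1343KO line, and 31 fell in WT between days 8 and 16. Under TPM scaling the share of all called genes that were higher in the 1343KO line went from 54.3% to 40.5% at day 8 and from 54.1% to 46.9% at day 16, and under median-of-ratios scaling to 48.1% and 44.0%, while 41 and 50, and 46 and 50, members were higher. The limits are 2 libraries a group, 1 clone, FPKM without counts, and a cell makeup that differed between the lines.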
